A study of Homo sapiens with 2 samples.

Results

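The mRNAs of the RAB small GTPases were followed in HEK293, an established line of human embryonic kidney origin. The cells had been transfected with TOP3B, a topoisomerase with activity on both DNA and RNA, bearing a FLAG tag and the R338W substitution. The anti-FLAG M2 antibody was used on native lysate to give 1 library (RNA immunoprecipitation, RIP), and 1 input library had no antibody. Both came from cells of passage 15 carrying the tagged protein, so it is common to them. The promoter that drives it and the share of cells transfected are not stated in the labels, and RIP from untagged cells was not analysed here. Members were the rows of the deposited table whose symbol is RAB followed by digits and at most one letter. This gave 40 of 13075 genes, all annotated as protein-coding. Another 25 symbols of the family list had no row among the files used here and were not analysed, among them RAB3A, RAB3B, RAB3D, RAB6B and RAB27B. The question the series addresses is which RNAs are held with TOP3B.

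RAB proteins are small GTPases that mark the membranes of the secretory and endocytic pathways. Exchange factors load them with GTP, GTPase-activating proteins switch them off, and in the GTP state they recruit effectors such as tethers and motors. A prenyl anchor holds them on the membrane, and soluble carriers take them back through the cytosol. Each compartment carries its own set, and many members occur as close paralogs that share a number and differ in the letter.

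Values are FPKM, fragments scaled to transcript length and to the library total. The ratio of a gene is log2((RIP + 1)/(input + 1)), and the 1 FPKM added to both sides shrinks the ratio of low genes. Higher and lower refer to FPKM as deposited, whose scale between the libraries is not fixed. Where a pair of FPKM or fragment values is given for a gene, the RIP value comes first. Each group held 1 library, so no difference has a replicate check and no test between groups was possible. In such bulk RNA, the level of a transcript in either library does not tell how many cells held it from how much each held. TOP3B mRNA itself stood at 30666 FPKM in the RIP against 15062 in the input, and the table does not tell transfected from chromosomal copies. Of 7 genes listed as typical of HEK293 cells, 5 had a row, with VIM (vimentin) at 679 and 544 FPKM and KRT8 (keratin 8) at 158 and 116. Of 16 kidney tubule, liver and blood markers, 1 had a row. The depth was estimated from the steps of low values as about 24200000 fragments for the RIP library and 15100000 for the input library. At that depth each RAB value rested on about 70 to 10892 fragments. Intervals quoted below are 95% exact (Clopper-Pearson) intervals of the share of RIP fragments, turned into log2 ratios without a pseudocount. They cover counting error only, and depend on the estimated depth and on 1 chosen transcript per gene.

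RAB11A and RAB11B were the paralogs furthest apart in ratio, and a stretch of their coding sequence is shown for that reason. It runs from the phosphate-binding loop to the end of the conserved switch II motif, 54 codons of the domain that binds GTP. Capitals mark G or C at the third position of a codon, the wobble position. Both are coding-exon sequences from GENCODE release 29 on GRCh38, 5′ to 3′ on the coding strand. RAB11A (chr15:65877343-65877504, plus strand, exon 2) was lower in the RIP and RAB11B (chr19:8399874-8400035, plus strand, exon 2) was higher.
RAB11A: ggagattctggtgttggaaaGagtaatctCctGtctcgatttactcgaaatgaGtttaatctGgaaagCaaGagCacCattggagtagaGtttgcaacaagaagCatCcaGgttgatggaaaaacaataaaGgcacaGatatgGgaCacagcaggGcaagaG
RAB11B: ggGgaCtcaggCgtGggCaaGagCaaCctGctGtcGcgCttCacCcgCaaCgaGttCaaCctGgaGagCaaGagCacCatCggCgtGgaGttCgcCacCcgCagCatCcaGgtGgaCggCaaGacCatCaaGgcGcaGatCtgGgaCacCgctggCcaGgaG

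Translated with the standard code, the RAB11A and RAB11B stretches differed at 0 of 54 residues but at 38 of 162 bases, 37 of them at wobble positions. G or C stood at 19 of the 54 wobble positions in RAB11A and at 52 in RAB11B.

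Most RAB mRNAs lay below the median gene in their ratio of RIP to input. As deposited, most were also slightly lower in the RIP than in the input and none was 2-fold apart, but that direction turned when both libraries were scaled to the summed FPKM of all rows. Of the 40 members, 27 had a ratio below 0, 12 above 0 and 1 at 0, where 40.9% of all 13075 genes lay below 0. A floor of at least 5 FPKM in at least 1 library was passed by 36 members. The other 4 (RAB4B, RAB26, RAB36 and RAB40C) had ratios of 0.02 to 0.25, so the floor removed only members above 0. Of the 36, 27 lay below 0, against 41.2% of the 11990 genes past the floor and 39.1% of the 10513 protein-coding genes among them. Coding genes past the floor with 78 to 759 coding bases, the range of most members, lay below 0 in 72.5% of cases. The median gene past the floor had a ratio of 0.13. Of all 40 members 6 lay above it, where 49.7% of all genes did, and of the 36 members 4 did, against 51.4% of coding genes past the floor. By construction, the median splits the genes past the floor evenly. The median ratio of the RABs was -0.22 over the 36 and -0.13 over the 40, against 0.15 for coding genes past the floor. The position of 0 depended on the scaling. Scaled to the summed FPKM of all rows (1090242.63 for RIP, 1512049.12 for input), which adds 0.47 to the RIP on the log2 scale, the RAB median was 0.24, 10 of the 40 lay below 0 and RAB40B was more than 2-fold higher. RAB mRNAs made up 0.0816% of the summed RIP values and 0.069% of the summed input values. The median gene was then at 0.58, and 4 of the 36 lay above it, as before. With ratios centred on the median gene, or with both libraries scaled to their summed coding FPKM, 34 of the 40 lay below 0. The members still above 0 were RAB26, RAB36, RAB35, RAB8A, RAB11B and RAB40B, and the small positive ratios of RAB34, RAB28, RAB12, RAB24, RAB4B and RAB40C turned negative.

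Members at least 2-fold higher numbered 0 of 36 (background 4.9% of genes past the floor, 3.65% of coding ones), and members at least 2-fold lower also 0 (background 2.5%, 0.533% of coding ones). A 2-fold limit thus passes few coding genes in either direction. With a limit of 1.5-fold, 6 of 36 members were lower (background 10.2%, 7.01% of coding genes) and 1 was higher (background 19.9%, 19.2% of coding genes). Over all 40 members the same 6 and 1 passed, where 9.68% of all genes were lower and 19.5% higher. Measured against counting error alone, 21 of 36 members had an interval below 0, against 29.3% of 10456 coding genes past the floor. An interval above 0 was held by 4 of the 36, against 51.2% of those coding genes, and by RAB36 below the floor. Both shares are over coding genes of all lengths. The shares among coding genes as short as the RABs were not taken.

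**Figure D1:**
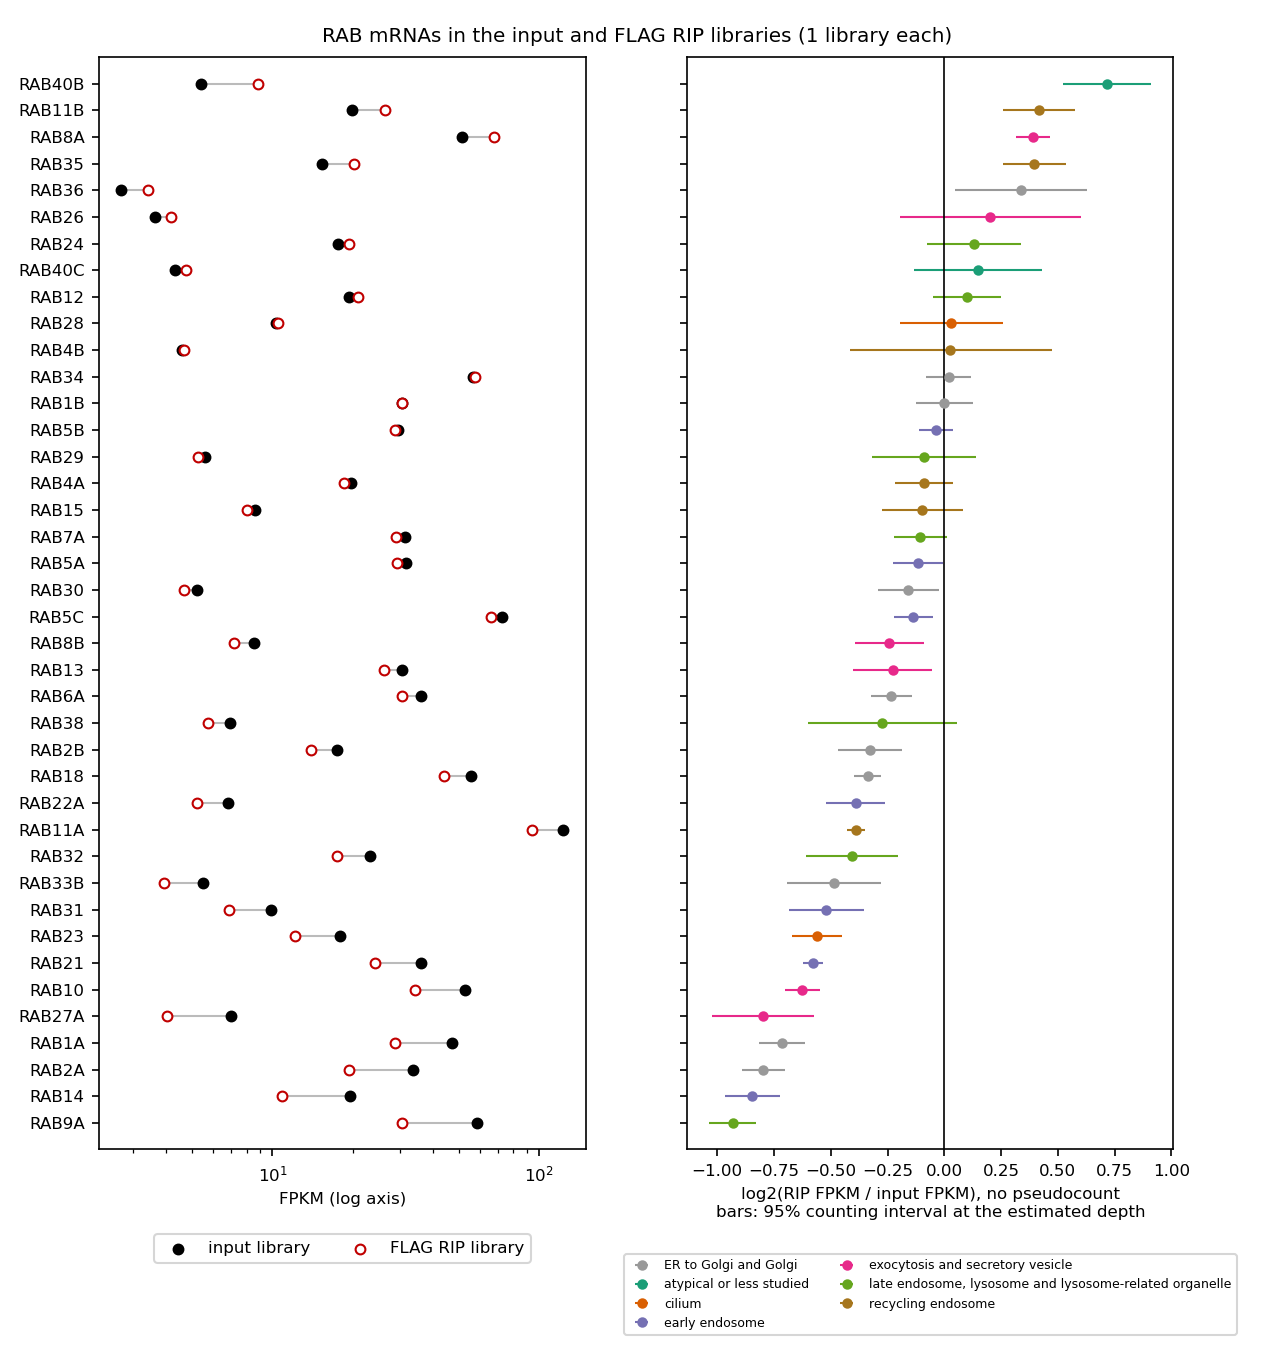
Left, FPKM of each of the 40 RAB mRNAs in the input (black) and the FLAG RIP (red open) on a log axis. Right, log2 ratio without a pseudocount, coloured by role, with bars for the 95% counting interval. Members run from RAB9A at the bottom, at 30.7 FPKM in the RIP against 58.6 in the input, to RAB40B at the top, at 8.85 and 5.39.

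The highest levels were those of RAB11A, RAB8A and RAB5C in the RIP and of RAB11A, RAB5C and RAB9A in the input. RAB11A, the recycling endosome GTPase, was the most abundant member in both libraries, at 94.4 FPKM in the RIP against 123.7 in the input. RAB8A, which directs vesicles to the plasma membrane and the cilium, stood at 67.8 and 51.7 FPKM, and was second in the RIP. RAB5C, of the early endosome, stood at 66.3 and 72.9 FPKM, and was second in the input. RAB34, known from the Golgi and cilium formation, had like levels in both, 57.5 and 56.7 FPKM. The lowest was RAB36 at 3.42 and 2.71 FPKM. The order of levels was largely kept between the libraries, with a Spearman correlation over the 40 members of 0.95. That value is a description across genes of 2 libraries and carries no p.

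Among the RABs of the ER and Golgi, 10 were measured and 9 passed the floor, with a median ratio of -0.31. RAB2A, which acts between ER and Golgi, stood at 19.3 FPKM in the RIP against 33.6 in the input, a ratio of -0.77 on 1723 and 1867 estimated fragments. RAB1A, needed for ER-to-Golgi transport, stood at 28.9 and 47.3 FPKM (-0.70), on 1595 and 1632 fragments. These 2 were the members of the group past 1.5-fold. RAB33B, a Golgi RAB tied to autophagy, stood at 3.91 and 5.48 FPKM (-0.40). RAB18, known from lipid droplets and the ER, stood at 44.1 and 55.7 (-0.33), and RAB2B at 13.9 and 17.5 (-0.31). RAB6A, of retrograde Golgi traffic, stood at 30.7 and 36.1 FPKM (-0.23), and RAB30 at 4.65 and 5.19 (-0.13). All of these were lower in the RIP, whereas the remaining 3 were level or higher. RAB1B stood at 30.68 FPKM in both libraries, RAB34 had a ratio of 0.02, and RAB36, below the floor, had 0.25.

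Early endosomal RABs were lower in the RIP in all 7 cases as deposited, with a median ratio of -0.33. That median was -0.12 over members with at least 20 FPKM in a library, and 0.07 with the libraries scaled to all rows. RAB14, which links the Golgi and endosomes, stood at 10.8 FPKM in the RIP against 19.5 in the input (-0.79). It rested on 1045 and 1171 fragments and was the second lowest ratio of the family. RAB21, which regulates integrin traffic, stood at 24.2 and 36.1 FPKM (-0.56). RAB31 stood at 6.88 and 9.86 FPKM (-0.46) and RAB22A at 5.19 and 6.80 (-0.33). These 4 lay apart from the RAB5 members, the master regulators of early endosome fusion, which were close to the input. RAB5A stood at 29.2 and 31.7 FPKM (-0.11), RAB5B at 28.9 and 29.6 (-0.04), and RAB5C had a ratio of -0.13 on 2808 and 1925 fragments.

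Recycling endosomal RABs went both ways, with a median ratio of -0.08 past the floor. Over RAB11A, RAB11B and RAB35, which alone reached 20 FPKM in a library, the median was 0.38, the ratio of RAB35. RAB11A had a ratio of -0.39 on 10892 and 8906 estimated fragments, with a counting interval of -0.43 to -0.35. RAB11B stood at 26.6 FPKM in the RIP against 19.9 in the input, a ratio of 0.40, on 1021 and 478 fragments and an interval of 0.26 to 0.57. RAB35, which acts in fast recycling and cytokinesis, stood at 20.2 and 15.3 FPKM (0.38), on 1357 and 643 fragments. So 2 of the 6 measured were higher by about the same amount as RAB11A was lower. The other members were near the input, with RAB4A at 18.5 and 19.7 FPKM (-0.08), RAB15 at 8.02 and 8.58 (-0.09) and RAB4B at 4.67 and 4.59 (0.02).

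Late endosomal and lysosomal RABs held the lowest ratio of the family. RAB9A (chr X, 13689125 to 13710506, plus strand), which returns mannose 6-phosphate receptors to the Golgi, stood at 30.7 FPKM in the RIP against 58.6 in the input. Its ratio was -0.91, or 1.91-fold lower without the pseudocount, on 1394 and 1659 estimated fragments. The annotation holds 5 pseudogenes named after RAB9A, so the authors' counting could have split its fragments. The same holds for RAB28 (5 such copies), RAB11A and RAB5C (2 each) and RAB1A (1, where RAB1C was taken as a copy of RAB1A). RAB32 and RAB38, which build melanosomes and related organelles, stood at 17.5 and 23.2 FPKM (-0.39) and at 5.75 and 6.95 (-0.24), the second with a counting interval across 0. The other 4 members lay near the input. RAB7A, the main late endosomal RAB, stood at 29.1 and 31.3 FPKM (-0.10), and RAB29, a partner of the kinase LRRK2, at 5.26 and 5.60 (-0.08). RAB12 stood at 20.9 and 19.5 FPKM (0.10) and RAB24 at 19.3 and 17.6 (0.12, on 536 and 306 fragments).

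The exocytic RABs were split between lower and higher members. RAB27A, which docks secretory lysosomes, stood at 4.03 FPKM in the RIP against 7.01 in the input (-0.67), on 321 and 349 fragments. RAB10, needed for polarised exocytosis, stood at 34.3 and 52.8 FPKM (-0.61). RAB13, of epithelial junctions, stood at 26.3 and 30.7 FPKM (-0.22) and RAB8B at 7.19 and 8.5 (-0.21). RAB8A alone among the members of this group past the floor was higher, with a ratio of 0.38 on 4369 and 2079 fragments. RAB26, below the floor, stood at 4.17 and 3.63 FPKM (0.16).

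Of the 2 RABs placed with the cilium, RAB23, a negative regulator of Hedgehog signalling, stood at 12.2 FPKM in the RIP against 17.95 in the input (-0.52). RAB28 stood at 10.5 and 10.3 FPKM (0.03). The RAB40 members carry a SOCS box that joins them to a cullin ubiquitin ligase. RAB40B had the highest ratio of the family, 0.62 at 8.85 and 5.39 FPKM. It rested on 792 and 301 fragments, with a counting interval of 0.52 to 0.91 without a pseudocount. RAB40C stood at 4.75 and 4.29 FPKM (0.12). RAB40B was thus the 1 member more than 1.5-fold higher.

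Close paralogs could lie far apart. The 7 numbered subfamilies with at least 2 measured members gave 9 pairs, and the counting intervals of 5 pairs did not overlap. Such intervals lay wholly below 0 in 29.3% of coding genes past the floor and wholly above 0 in 51.2%. The share of other gene pairs with intervals apart was not taken, so 5 of 9 is not shown to be particular to RAB paralogs. RAB11A and RAB11B lay 0.78 apart on the log2 scale, RAB1A and RAB1B 0.70, and RAB8B and RAB8A 0.60. RAB40C and RAB40B lay 0.50 apart and RAB2A and RAB2B 0.46. Their coding sequences were 72.5%, 74.9%, 77.2%, 78.8% and 74.3% identical, in that order. The members of the RAB4 pair lay 0.10 apart, and those of the 3 RAB5 pairs 0.02 to 0.10, at 72.1% to 77.6% coding identity. Identity between paralogs thus did not order the pairs.

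In 6 of the 9 pairs, the member with the higher ratio also had more G or C at wobble positions (GC3). GC3 was 35.6% in RAB11A and 88.1% in RAB11B, 41.5% in RAB1A and 76.1% in RAB1B, and 48.3% in RAB8B and 70.0% in RAB8A. RAB2A had 35.8% and RAB2B 54.2%. The RAB40 pair went the other way, with 92.2% in RAB40C and 85.3% in RAB40B. The RAB4 and RAB5 members differed in GC3 with little difference in ratio. RAB4B was below the floor, with a counting interval of -0.42 to 0.48, so a larger gap in the RAB4 pair cannot be told from a small one. The 21-base switch II stretches of the RAB5 members are shown as counterexamples, capitals again marking G or C at wobble positions.
RAB5A: tgGgatacagctggtcaagaa
RAB5B: tgGgaCacagctggGcaGgaG
RAB5C: tgGgaCacagctggacaGgaG
These lie in coding exons at chr3:19975657-19975677 (RAB5A), chr12:55990003-55990023 (RAB5B) and, on the minus strand, chr17:42128724-42128744 (RAB5C). G or C stood at 1 of 7 wobble positions in RAB5A, 5 in RAB5B and 4 in RAB5C. Over the whole coding sequence GC3 was 42.7% in RAB4A and 74.6% in RAB4B, and 30.2%, 57.7% and 65.7% in RAB5A, RAB5B and RAB5C. RAB5A had the lowest GC3 of the family and a ratio close to 0.

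**Figure D2:**
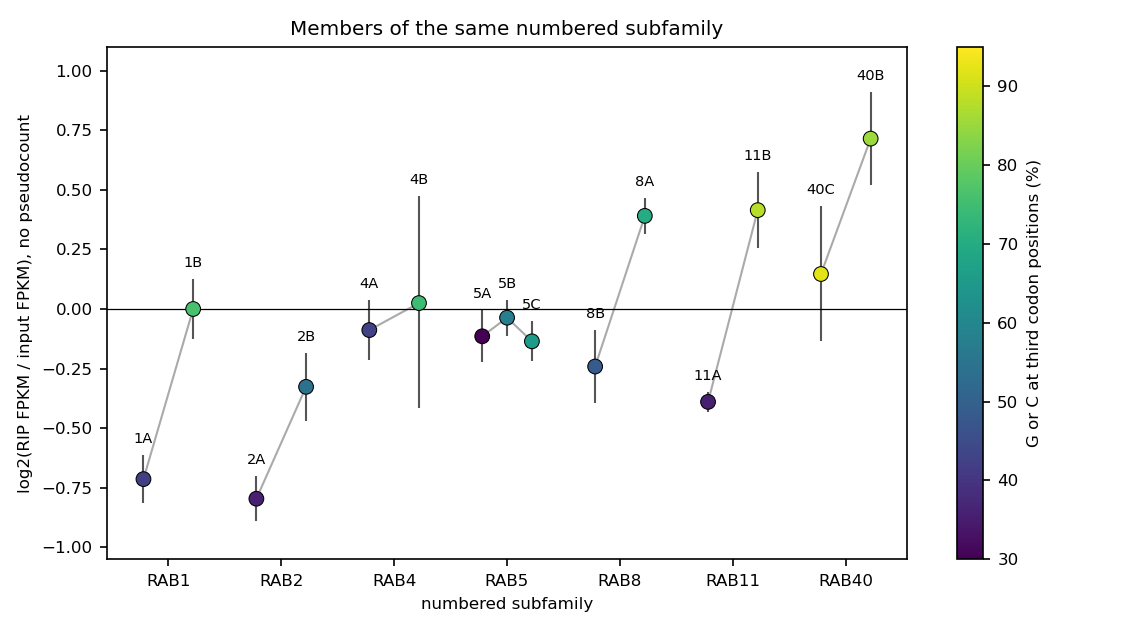
Log2 ratio of RIP to input FPKM, without a pseudocount, for the members of each numbered subfamily, coloured by GC3, with bars for the 95% counting interval. RAB11, RAB1, RAB8, RAB40 and RAB2 hold members whose intervals lie apart, whereas the RAB4 and RAB5 members overlap.

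Across all 40 members, the ratio was higher where GC3 was higher. The Spearman correlation was 0.76 and the Pearson correlation 0.76, described here across genes of the same 2 libraries and without a p. Members under 50% GC3 numbered 16. Their median ratio was -0.46, and 15 of them lay below 0, the exception being RAB28 at 0.03. All 6 members at least 1.5-fold lower were among these 16. Of the 24 members with 50% GC3 or more, 12 lay below 0, and their median was -0.02. These 24 include RAB4B, RAB26, RAB36 and RAB40C, which lay above 0 but below the floor that the coding genes compared below all passed. The 5 members with an interval above 0 (RAB36, RAB35, RAB8A, RAB11B and RAB40B) had GC3 of 70.0% to 88.1%. GC content of the transcript (Spearman 0.72) and of the 3′ UTR (0.66) ordered the members in a like way, so codon choice and base composition elsewhere in the mRNA cannot be told apart. GC3, the 50% limit and coding length were taken up as measures after the ratios had been seen. RABs with longer 3′ UTRs had somewhat lower ratios (Spearman -0.36), and those with longer coding sequences somewhat higher ones (Spearman 0.26, Pearson 0.40). The longest, RAB26, RAB34, RAB36, RAB40B and RAB40C, had GC3 of 67.6% to 92.2% and ratios above 0. Coding length and GC3 were thus not separated among the members.

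Coding genes at large showed a weaker relation. Over 10456 coding genes past the floor, the Spearman correlation of ratio and GC3 was 0.14. For the RABs past the floor alone it was 0.69. Over the 1937 of the coding genes with coding lengths in the RAB range, 585 to 1002 bases, it was 0.23. Among genes of that length under 50% GC3, 67.2% lay below 0 and 19.2% were at least 1.5-fold lower, and of those with 50% or more, 52.5% and 6.99%. Of the RABs under 50% GC3, 93.8% lay below 0 and 37.5% were at least 1.5-fold lower. The difference between the RABs and other short genes was not tested.

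**Figure D3:**
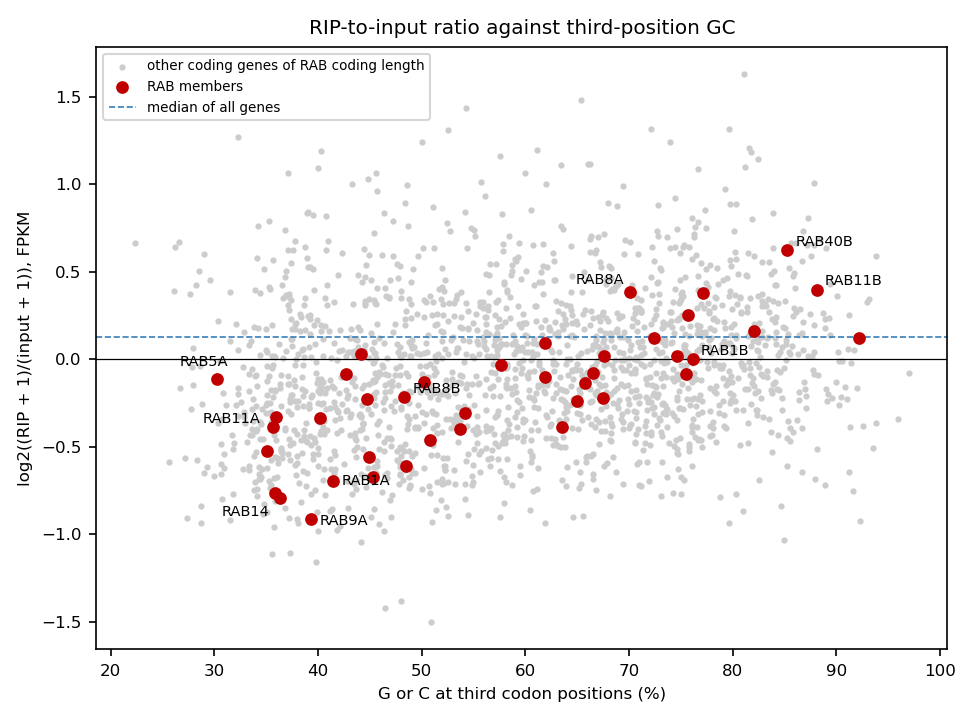
Ratio against GC3 for the 40 RAB members (red) and for other coding genes with coding lengths of 585 to 1002 bases (grey). The red points run from the lower left, with RAB9A at 39.3% and -0.91, to the upper right, with RAB11B at 88.1% and 0.40; the grey cloud is wide at every GC3.

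RABs are also short proteins, and short coding sequences had low ratios in these libraries. Over all coding genes past the floor, ratio and coding length had a Spearman correlation of 0.51. The median ratio went from -0.25 in the shortest quintile of coding length to 0.52 in the longest. The shortest quintile, 78 to 759 bases, held 35 of the 40 RABs, RAB4B below the floor among them. Their median ratio was -0.22, close to the -0.25 of all 2096 genes of that quintile, of which 20.7% were at least 1.5-fold lower. In the RABs of that quintile 6 of 35 were, and 27 of the 35 lay below 0 against 72.5% of its genes. The next quintile held the other 5 RABs (RAB26, RAB34, RAB36, RAB40B and RAB40C), with a median of 0.16 against 0.00 for its 2090 genes. Of these 5, 0 lay below 0, against 49.7% of its genes. The sets are unlike, because RAB26, RAB36 and RAB40C were below the floor that all 2090 genes passed. Past the floor stood RAB34, with a ratio of 0.02, and RAB40B, with 0.62. Over the whole RAB range of lengths, the median was -0.09 for the 1937 coding genes past the floor, -0.22 for the 36 RABs past the floor and -0.13 for all 40.

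**Figure D4:**
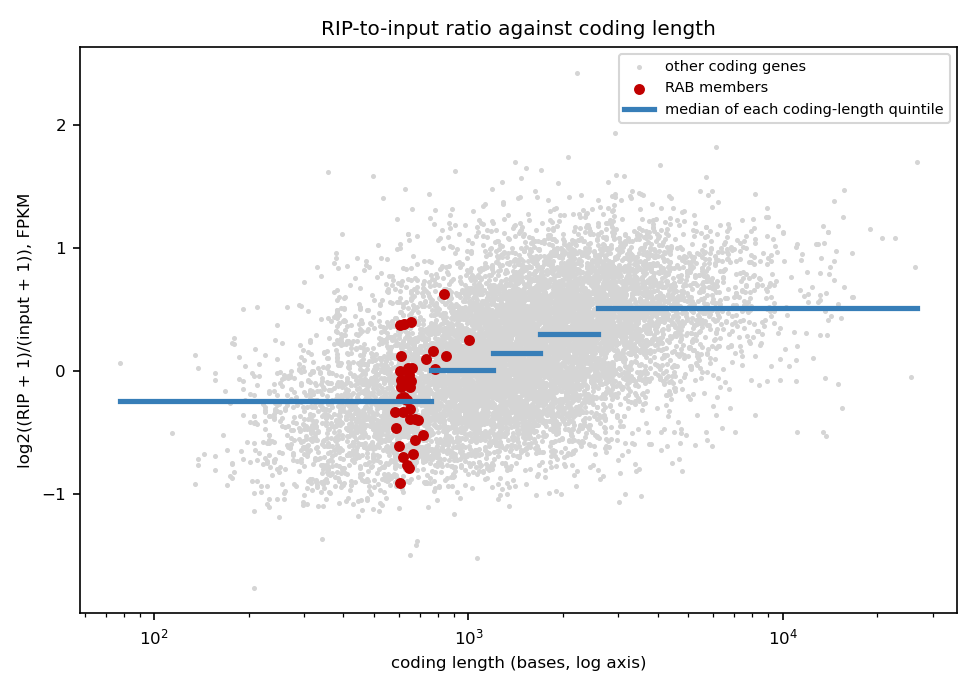
Ratio against coding length on a log axis for the RAB members (red) and other coding genes past the floor (grey), with blue bars at the median of each coding-length quintile. The RAB points stand in a narrow column around 645 bases, on both sides of the lowest bar at -0.25.

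Other small GTPases of like size also lay mostly below the median gene. Coding genes past the floor with 78 to 759 coding bases had a median ratio of -0.25, with 72.5% below 0. The ARF, ARL and SAR GTPases, which drive coat assembly and organelle transport, had a median ratio of -0.25 over 24 genes. Of these 24, 17 lay below 0 and 19 below the median gene. The highest of that list was TRIM23, at 25.1 and 17.4 FPKM, and ARFRP1 stood at 13.6 and 10.7. RAS GTPases, which relay growth signals, had the lowest median of the lists, -0.53 over 18 genes. Of these 18, 16 lay below 0 and 16 below the median gene. RRAS2 stood at 23.4 and 44.5 FPKM and RAP2A at 5.42 and 10.7. HRAS, at 53.7 and 40.4 FPKM, and RIT1, at 37.3 and 24.4, were the 2 above 0. Over the ARF list GC3 and ratio had a Spearman correlation of -0.09 and over the RAS list 0.37, each on few genes.

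The proteins that act on RABs mostly had ratios above 0 as deposited, as did 58.7% of all genes past the floor and 60.8% of the coding ones. RAB effectors had a median ratio of 0.49 over 48 genes, with 40 above 0 and 2 at least 2-fold higher (background 4.9%). These were MYO5C, a myosin motor, at 33.8 FPKM in the RIP against 15.3 in the input, and RIMS2, a RAB3 effector, at 8.88 and 3.85. EXPH5, a RAB27 effector, stood at 3.49 and 5.84 FPKM and OSBPL1A at 11.8 and 15.0. Exchange factors had a median of 0.44 over 43 genes, with 31 above 0. DENND5A stood at 96.6 and 52.2 FPKM and DENND2A at 6.14 and 2.53, the 1 of 43 exchange factors at least 2-fold higher (background 4.9%). At the low end stood DENND6A at 11.9 and 21.1 FPKM and the short TRAPP subunit TRAPPC3 at 26.1 and 39.0. GTPase-activating proteins had a median of 0.34 over 35 genes, with 30 above 0. SGSM3 stood at 67.1 and 31.5 FPKM and SGSM2 at 48.0 and 22.6, the 2 of 35 at least 2-fold higher (background 4.9%), while USP6NL stood at 7.97 and 10.3 and TBC1D15 at 34.1 and 38.5. Median coding lengths were 2667 bases in the effectors, 2208 in the exchange factors and 2388 in the activating proteins, against 639 in the RABs past the floor, and median GC3 was 58.0% to 59.4% against 52.2%. Coding genes past the floor with 1692 to 2580 coding bases had a median ratio of 0.30, with 25.0% below 0. Those with longer coding sequences had a median of 0.52, with 12.5% below 0. The part of coding length in the differences between these lists and the RABs was not tested.

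The small set that prenylates and carries RABs was divided. RABGGTA, a subunit of the RAB prenyl transferase, stood at 19.6 FPKM in the RIP against 8.95 in the input, at least 2-fold higher. CHML, an escort protein that presents RABs for prenylation, stood at 11.1 and 23.3 FPKM (-0.998, just inside the 2-fold limit), and RABIF, a RAB chaperone, at 5.10 and 6.79. Over the 8 genes the median was -0.01. The RAB-like GTPases also had a median of -0.01 over 7 genes, with RABL2B at 20.53 and 10.8 FPKM and RABL6 at 44.9 and 28.1, and RABL3 at 6.75 and 8.03 and IFT22 at 21.9 and 24.9.

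**Figure D5:**
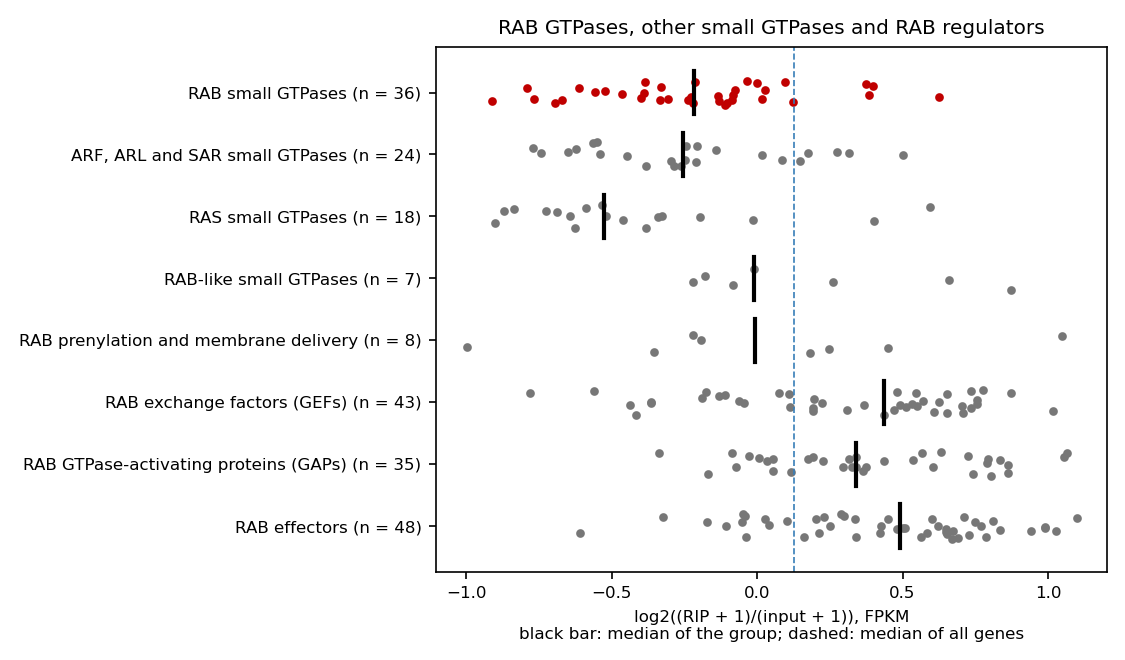
Ratios of single genes past the floor for the RABs (red) and 7 other lists (grey), with a black bar at each median and a dashed line at the median of all genes, 0.13. The RABs (median -0.22) lie with the ARF and RAS GTPases on the left, and the effectors (0.49), exchange factors (0.44) and activating proteins (0.34) on the right.

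Of the rows outside the naming rule, the noncoding neighbours of 2 members were measured. RAB30-AS1 stood at 19.95 FPKM in the RIP against 30.1 in the input, a ratio of -0.57, against -0.13 for RAB30. RAB11B-AS1 stood at 8.31 and 6.99 FPKM, a ratio of 0.22, against 0.40 for RAB11B. The libraries were made with a stranded kit, but whether strand was used in counting is not stated, so fragments of the antisense pairs may be shared.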

How the data were processed

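RNA was measured in 1 FLAG RIP and 1 input library, and groups were taken from the sample titles. The authors deposited 1 table with a value per gene and library. The unit is not named and was taken as FPKM as deposited, because the library sums differ (1090242.63 and 1512049.12). Per the submitters' processing notes, the tools included RSEM 1.2.31 and STAR 2.6.1, with Trimmomatic 0.3 and cutadapt 1.18, on hg38. Neither the annotation used nor how low genes were filtered is stated there. FPKM is relative to the library total, so abundant RNAs lower all other values.

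Depth was estimated by searching for the total and mean fragment length (164 bases in both) that give whole fragments in genes with 1 annotated transcript. The share of genes within 0.15 of a whole number was then 60.0% of 100 for the RIP and 65.9% of 182 for the input. With shuffled lengths the share was 37.4% of 273 for the RIP and 57.6% of 33 for the input, so the depths are rough. The maximised score was 4.8 and 7.12, and 3.0 and 2.6 with shuffled lengths.

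Genes with at least 5 FPKM in 1 library (11990 of 13075) were past the floor. Transcript features came from GENCODE 29 (GRCh38, the assembly of hg38), matched for 12983 rows, using the APPRIS principal coding transcript. All 40 members matched. Fragments of members used that transcript's length. Genes sharing a number were compared in all pairs, all members were named, and 2 genes from each end of every other list. Some genes and sequences that these rules name, and 1 list, are not reported here. Members, roles and lists were chosen with earlier results of these data known. Alternatives were other pseudocounts, floors, limits and 3 scalings. The scripts were tested on simulated data. Tools were Python 3.11.15, numpy 2.4.6, scipy 1.17.1, pandas 2.3.3, Biopython 1.88 and matplotlib 3.10.9.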

Additional observations from a re-analysis of the deposited data

How the results depend on the processing

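No paired analysis was possible because RIP and input are single libraries. Neither TMM nor DESeq2 size factors were computed, as both need counts. The cause of each shift was not tested unless the setting itself shows it. Against 0 RAB members at least 2-fold higher and 0 lower, the 1.5-fold limit gave 1 and 6, and both centring on the median gene and rescaling to the summed FPKM of protein-coding genes gave 1 lower (RAB9A). Without a floor 7 of 40 members lay above the median gene, taken there over all rows (0.12), against 4 of 36; 6 of 40 lay above the median of genes past the floor. The coding-gene rescaling shifted the RIP by -0.18 log2. It moved the median of GTPase-activating proteins to 0.19 and that of RAS GTPases to -0.69, and a floor of 20 FPKM moved the former to 0.72. That floor also took the early endosomal median to -0.12 and the late endosomal to -0.245. It took the prenylation list to -0.19 and the RAB-like list to 0.32. The recycling median became 0.38, over RAB11A, RAB11B and RAB35 only. Scaling to the summed FPKM of all rows, added after seeing the data, shifted the RIP by 0.47 log2 and turned the RAB median to 0.24, with 10 members below 0 and 1 at least 2-fold higher (RAB40B). Under it the medians were 0.14 for ER and Golgi, 0.072 for early endosomal and 0.33 for late endosomal RABs. They were 0.88 for exchange factors, 0.79 for activating proteins, 0.95 for effectors, 0.19 for ARF and -0.093 for RAS GTPases. In the other settings the RAB median ran from -0.38 (coding-gene rescaling) to -0.13 (no floor). The members below 0 numbered 27 as deposited and 34 with centring or coding-gene rescaling. The rank correlation with GC3 ran from 0.69 over the 36 members past the floor to 0.78 after rescaling. It was 0.70 with 1 member per numbered subfamily. Those 2 subsets were also added after seeing the data. Depth limits RAB4B most, which rested on about 70 input fragments.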
